A study of Mus musculus with 22 samples.

Results

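Wild-type (WT) neural progenitor cells (NPCs) were compared with WT adult prefrontal cortex (PFC) by RNA-seq, using the 6 of 22 libraries whose labels give both the WT genotype and one of these sources, 3 NPC and 3 PFC. The series as a whole compares mice and cells lacking *Phf8*, an X-linked histone demethylase gene, with WT controls in embryonic stem cells, NPCs, striatum and PFC. All 6 libraries carry the strain label B6x129SvJ, and no label names a drug or stress treatment. The NPCs were derived from embryos at day 16.5 of gestation and grown as a monolayer on coated dishes, so they are a cultured population. The PFC libraries came from mice of 2 months, and this is bulk tissue that holds neurons, glia, vessels and blood together. In bulk samples, fewer cells of a type and less RNA per cell cannot be told apart. The labels do not say whether the 3 libraries of a group came from separate cultures or animals, so every p-value measures only the spread between these libraries. Source, culture, age and the form of the tables all differ between the groups and cannot be told apart. The 6 libraries from KO NPCs and KO PFC (KO, *Phf8* knockout) were used as a second set for the same contrast.

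Neural progenitors of the embryonic forebrain divide, are held in that state by Notch signalling and SoxB1 transcription factors, and carry the intermediate filaments nestin and vimentin. As neurons form, the cell cycle closes, the repressor REST is withdrawn from neuronal genes, and broadly used proteins are replaced by neuronal relatives in chromatin remodelling, splicing, glycolysis, ion transport and translation. Late in gestation the same progenitors turn to making glia. The adult cortex adds synapses, myelin, microglia and vessels.

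Total counts in genes ranged from 11798544 to 15539811 in the NPC libraries and from 5898286 to 10148073 in the PFC libraries. The biological coefficient of variation was 23.3% among the NPC libraries and 11.1% among the PFC libraries. These spreads come from tables of different form, described below, so they do not show which means are the more precise. NPC replicate 2 stood apart, with a Pearson correlation of 0.967 to 0.968 (log2 CPM) with the other NPC libraries against 0.990 between those. Between PFC libraries the correlation was 0.986 to 0.990. The 2 sets of tables also differ in form. Reads aligned to several places made up 33.8 to 34.1% of the NPC tables and 7.62 to 8.90% of the PFC tables. Among genes of at least 500 exon bases, the most densely counted reached 71.0 to 85.7 counts per exon base in NPC libraries. In PFC libraries it reached 1.75 to 1.80, so no gene of that length was above 2 there. The log2 differences of named genes above 2 in NPCs are therefore also given with the NPC counts passed through a limit of 2 counts per exon base (the density limit), an alternative chosen after seeing the data. This limit is not a cut at 2 but a smooth exponential curve that levels off at 2. It therefore also lowers NPC counts under 2, the more so the nearer they are to it.

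Levels below are CPM, counts per 1e+06 counts of the library after scaling by edgeR's TMM factors, given in the order of replicates 1, 2 and 3. RPKM, the same value per kilobase of exon, is used where genes are compared with each other. Differences are fitted log2 fold changes of PFC over NPCs with their standard error (SE), and adjusted p-values are those of the quasi-likelihood test of edgeR, adjusted by Benjamini and Hochberg's method over all 15957 genes tested. A gene was called at an adjusted p under 0.05 and an absolute log2 fold change above 1. Genes were tested only if they passed a count filter, which high counts in 1 group alone are enough to pass.

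More than 1 gene in 2 changed. 4689 genes were called higher in PFC, 29.4% of those tested, and 3547 were called higher in NPCs, 22.2%. Each count of list members called in the WT libraries is to be read beside these shares. The median log2 fold change of all genes tested was 0.04. The PFC side held the larger differences: its called genes had a median of 3.09 and 2390 of them lay beyond 8-fold, whereas genes called higher in NPCs had a median of -1.79 and 721 lay beyond 8-fold. Counts were 0 in all NPC libraries for 387 of the genes higher in PFC, and 0 in all PFC libraries for 25 of the genes higher in NPCs. Library totals without scaling factors moved the median of all genes to 0.36 and gave 5491 genes higher in PFC and 2699 higher in NPCs, so that the PFC share of calls was 67.0% in place of 56.9%.

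**Figure D1:**
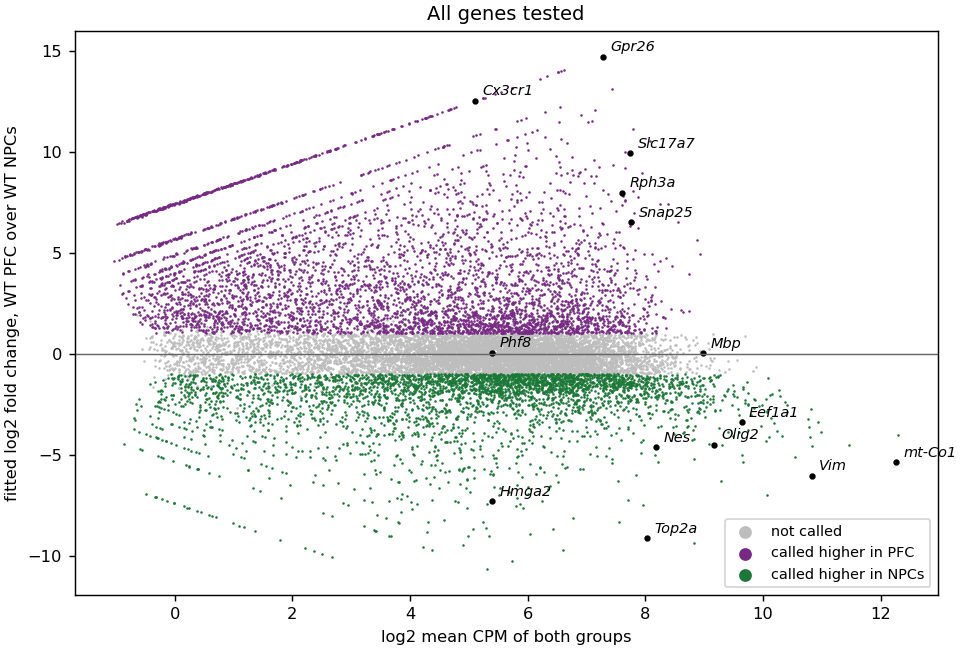
Fitted log2 fold change of WT PFC over WT NPCs (y axis) against the log2 mean CPM of both groups (x axis) for the 15957 genes tested, 1 point per gene, coloured by call. The 4689 genes called higher in PFC reach farther from 0 than the 3547 called higher in NPCs, and the parallel lines at the upper left are genes with 0 or few counts in every NPC library.

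*Phf8*, the gene targeted in the study, was at 40.3, 40.8 and 42.7 CPM in WT NPCs and 45.6, 43.7 and 38.7 CPM in WT PFC. The groups overlapped, and the log2 difference was 0.05 (SE 0.10, adjusted p = 0.68 by edgeR). Of the 14 genes of its demethylase family and of DNA methylation, 0 were called higher in PFC and 4 in NPCs, 28.6% beside the 22.2% of all genes, with a median log2 difference of -0.42. These 4 were *Uhrf1*, *Dnmt1*, *Dnmt3b* and *Tet1*. *Uhrf1*, which brings the maintenance methyltransferase to newly copied DNA, was at 96.7, 125 and 113 CPM in NPCs and at 0.98, 0.77 and 0.47 CPM in PFC (log2 difference -7.16, SE 0.21, adjusted p = 1.2e-07 by edgeR). *Dnmt1*, that methyltransferase, fell by 1.51 on the log2 scale (SE 0.13).

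The labelled sources were checked against their defining markers. *Nes*, which encodes nestin, was at 587, 498 and 589.8 CPM in NPCs and at 16.6, 25.1 and 25.3 CPM in PFC, with a log2 difference of -4.64 (SE 0.20, adjusted p = 4.2e-07 by edgeR). *Slc17a7*, the vesicular glutamate transporter of cortical excitatory neurons, was at 0.56, 0.28 and 0.43 CPM in NPCs and 407, 350.2 and 528 CPM in PFC. Its log2 difference was 9.92 (SE 0.28, adjusted p = 1.0e-07 by edgeR), and the groups were far from overlapping for both genes.

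Progenitor genes were higher in NPCs. Of 23 genes on the list, 17 were called higher in NPCs and 0 in PFC, and the list median was -3.01. *Sox2*, a transcription factor that keeps progenitors undifferentiated, was at 669.97, 615 and 735 CPM in NPCs and at 54.1, 57.8 and 59.7 CPM in PFC (log2 difference -3.56, SE 0.12, and -2.40 with the density limit). The receptors *Notch1* and *Egfr* fell by 3.70 and 4.25 on the log2 scale in PFC. *Hmga2*, a chromatin protein of fetal stem cells, was at 49.0, 106 and 95.4 CPM in NPCs and never above 0.79 CPM in PFC. *Pax6*, a radial glia factor, differed less, at 50.7, 66.4 and 36.9 CPM against 14.04, 17.3 and 13.1 CPM (log2 difference -1.78, SE 0.23). The 6 members not called were *Sox1*, *Prom1*, *Gli3*, *Emx2*, *Nr2e1* and *Bmi1*.

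Some progenitor genes were much denser than that limit in the NPC tables. *Vim*, which encodes vimentin, was at 3450.1, 2955 and 4387 CPM in NPCs and at 49.7, 51.8 and 62.3 CPM in PFC, and *Fabp7*, the fatty acid-binding protein of radial glia, was at 2992, 1459 and 1971 CPM against 16.0, 16.3 and 18.6 CPM. Their log2 differences were -6.04 and -6.98. With the NPC counts passed through the limit of 2 counts per exon base they were -3.87 and -3.66, and both remained called.

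Cell cycle genes were higher in NPCs. Of 47 genes, 45 were called higher in NPCs and 0 in PFC, with a median log2 difference of -4.78, and the count was the same with the density limit. *Top2a*, the topoisomerase that untangles chromosomes before division, was at 462, 598 and 501 CPM in NPCs and at 1.63, 0.68 and 0.31 CPM in PFC (log2 difference -9.13, SE 0.35, adjusted p = 3.7e-07 by edgeR). *Mki67*, the antigen used to score dividing cells, was at 310.2, 487 and 327 CPM against 1.09, 1.45 and 0.79 CPM. *Cdk1*, the kinase that drives mitosis, was at 122, 154 and 119 CPM in NPCs and had 7 counts in all PFC libraries together. NPC replicate 2 was the highest NPC library for all 3 genes.

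The replication genes named here had smaller differences than these mitotic genes. *Mcm2*, a subunit of the replicative helicase, was at 108, 138 and 130.1 CPM in NPCs and 9.47, 12.2 and 9.92 CPM in PFC (log2 difference -3.56, SE 0.15). *Pcna*, the sliding clamp, was at 65.2, 82.7 and 77.3 CPM against 24.9, 31.8 and 37.6 CPM (log2 difference -1.26, SE 0.17, and -0.95, not called, with library totals unscaled). *Ccnd1*, the G1 cyclin that answers growth factors, was at 1582, 1293 and 1774 CPM against 43.0, 57.1 and 40.9 CPM (log2 difference -5.04, and -3.87 with the density limit). The 2 members not called were *E2f1*, at 24.0, 31.1 and 25.9 CPM in NPCs and 40.8, 42.0 and 45.8 CPM in PFC (log2 difference 0.67, SE 0.13), and *Ccne1*, whose log2 difference was -0.17 and 0.14 with library totals unscaled.

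Promoters of cell cycle genes are shown because so many members moved together. RefSeq promoters of 300 bases (GRCm38.p6, 250 before and 50 after the start) were found for 36 of the 47 genes, at 37 starts. Searched on both strands, the CCAAT box (CCAAT) was in 28 of these 37 promoters, 75.7%, against 37.4% of all 32851 promoters of the same length. The CHR element (TTTGAA or TTCGAA) was in 16 of 37, 43.2%, against 19.2%, and an E2F motif (TTTGGCGC, TTTCGCGC, TTTCCCGC or TTTGCCGC) in 8 of 37, 21.6%, against 2.27%. Both CHR and CCAAT were in 16 promoters, 43.2%, against 7.53% of all. TTCGAA reads the same on both strands, and no 2 of these motifs hold each other. These matches are descriptions of letters and not of binding. The 150 bases before the start are given 5′ to 3′ on the strand of the gene, for *Top2a* (chr11:99024190-99024339, minus strand), *Cdk1* (chr10:69352913-69353062, minus), *Bub1* (chr2:127831860-127832009, minus) and *Mki67* (chr7:135716380-135716529, minus), the 4 members with the largest difference that have an entry, and capitals mark the E2F, CHR and CCAAT matches.
Top2a: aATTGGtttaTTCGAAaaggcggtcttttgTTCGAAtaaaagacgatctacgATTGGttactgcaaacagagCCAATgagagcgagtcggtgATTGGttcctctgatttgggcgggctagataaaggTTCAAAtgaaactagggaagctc
Cdk1: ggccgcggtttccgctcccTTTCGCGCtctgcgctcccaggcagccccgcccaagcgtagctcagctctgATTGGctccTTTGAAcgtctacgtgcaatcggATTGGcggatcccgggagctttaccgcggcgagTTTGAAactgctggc
Bub1: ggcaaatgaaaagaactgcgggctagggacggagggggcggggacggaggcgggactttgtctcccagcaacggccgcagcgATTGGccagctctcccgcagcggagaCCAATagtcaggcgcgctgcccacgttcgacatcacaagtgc
Mki67: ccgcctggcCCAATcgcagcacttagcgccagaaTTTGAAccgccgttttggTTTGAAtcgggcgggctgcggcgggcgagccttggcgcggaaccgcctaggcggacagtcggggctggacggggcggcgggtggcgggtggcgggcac
In these windows *Top2a* has 4 CCAAT and 3 CHR matches, *Cdk1* 2 CCAAT, 2 CHR and 1 E2F match, *Bub1* 2 CCAAT matches, and *Mki67* 1 CCAAT and 2 CHR matches.

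The lists of ribosome production and respiration had medians nearer 0. Of 26 ribosome biogenesis genes, 7 were called higher in NPCs, 26.9% beside 22.2% of all genes, and 0 in PFC, with a median of -0.52. The widest gap was that of *Myc*, a growth regulator of these genes, at 132, 121 and 133 CPM in NPCs and 7.18, 6.07 and 4.41 CPM in PFC (log2 difference -4.43, SE 0.17). *Ncl* and *Npm1*, which encode nucleolar proteins, fell by 1.76 and 1.63. Of 34 genes of oxidative phosphorylation, 11 were called higher in NPCs, 32.4%, and 1 in PFC, with a median of -0.85, and 3 were higher in NPCs once the density limit was applied. *Cycs*, the electron carrier, was the member higher in PFC, at 5.36, 5.44 and 5.65 CPM in NPCs against 18.2, 17.9 and 20.3 CPM. The 7 mitochondrially encoded protein genes tested were all called higher in NPCs, where they summed to 21069 to 30612 CPM against 1051 to 1845 CPM in PFC. The one with the highest RPKM in NPCs, *mt-Co1*, had a log2 difference of -5.39, and -0.21 with no call under the density limit.

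Genes of excitatory cortical neurons were higher in PFC. Of 25 excitatory cortical neuron genes, 20 were called higher in PFC and 0 in NPCs, with a median log2 difference of 6.35. *Neurod6* and *Tbr1*, transcription factors of cortical projection neurons, had 1 and 2 counts in all NPC libraries together, against 102 to 133 CPM and 168 to 198 CPM in PFC. The ratio was 4199 for *Neurod6* (95% exact Poisson interval 754 to 165860.0) and 3449 for *Tbr1* (955 to 28479), intervals that cover counting error only. *Camk2a*, the kinase of excitatory synapses, was at 8.24, 7.94 and 7.89 CPM in NPCs and 709, 615 and 904 CPM in PFC (log2 difference 6.53, SE 0.20, adjusted p = 1.2e-07 by edgeR). *Grin1*, the obligatory NMDA receptor subunit, and *Gria1*, an AMPA receptor subunit, had log2 differences of 5.47 and 5.998.

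The 5 members of the excitatory list that were not called were *Rorb*, *Cux1*, *Etv1*, *Camk2b* and *Gria2*. *Camk2b* was at 443, 482 and 542 CPM in NPCs and 409, 370.4 and 482 CPM in PFC, so its groups overlapped, in contrast to *Camk2a*. *Gria2*, the AMPA receptor subunit that limits calcium entry, was at 327, 150.2 and 255 CPM against 426, 349 and 433 CPM (log2 difference 0.72, SE 0.27). It was called with library totals unscaled (1.04) and with an offset for GC content (1.16).

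Interneuron genes were called higher in PFC in 17 of 18 cases and in NPCs in 0, with a median of 6.70. *Gad1*, which makes GABA, was at 5.20, 6.64 and 9.63 CPM in NPCs and 269, 248 and 311 CPM in PFC (log2 difference 5.26, SE 0.24). The peptide gene *Sst* had 0 counts in NPCs and 66.6, 62.2 and 98.1 CPM in PFC, at least 936-fold higher with the NPC group set to a floor of 3 counts. *Vip* had 1 count in NPCs and 65.7 to 86.3 CPM in PFC. *Pvalb*, the calcium buffer of fast-spiking cells, was at 0.72, 0.18 and 0.14 CPM against 61.7, 58.6 and 78.1 CPM.

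Of 26 genes of synaptic vesicles and release, 25 were called higher in PFC and 1 in NPCs, with a median of 3.51. *Snap25*, a SNARE protein, was at 5.84, 2.58 and 5.50 CPM in NPCs and 404, 329 and 555 CPM in PFC (log2 difference 6.51, SE 0.36). *Sv2b*, a vesicle protein of glutamatergic terminals, had 7 counts in the NPC libraries and was at 462, 383 and 482 CPM in PFC. *Vamp2*, the general vesicle SNARE, differed least among those called, at 159, 143 and 175 CPM against 311, 269 and 402 CPM (log2 difference 1.04, SE 0.16). Without NPC replicate 2 or PFC replicate 3 it was not called, at 0.95 and 0.89.

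Voltage-gated channel genes were called higher in PFC in 28 of 33 cases and in NPCs in 1, with a median of 5.25. *Scn1a*, a sodium channel of inhibitory neurons, was at 2.56, 0.92 and 1.59 CPM against 196, 203 and 183 CPM. *Cacna1h*, a T-type calcium channel, was the 1 higher in NPCs, at 168, 72.1 and 189 CPM against 76.8, 72.4 and 54.5 CPM (log2 difference -1.08, SE 0.36). Its lowest NPC library lay within the PFC range, and with any library left out except NPC replicate 2 it was not called, at -1.15 to -0.84.

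Activity-regulated genes were called higher in PFC in 13 of 19 cases and in NPCs in 1, with a median of 2.00. *Npas4*, a neuron-specific early gene, was at 0.40, 1.11 and 1.74 CPM in NPCs and 61.9, 40.1 and 62.8 CPM in PFC (log2 difference 5.63, SE 0.41). *Arc*, which acts at the synapse, was at 26.4, 21.9 and 47.6 CPM against 307, 159.9 and 397 CPM, so the PFC libraries themselves differed more than 2-fold. The member higher in NPCs was *Btg2*, an antiproliferative gene, at 189, 152 and 188 CPM against 55.6, 22.5 and 48.2 CPM.

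**Figure D2:**
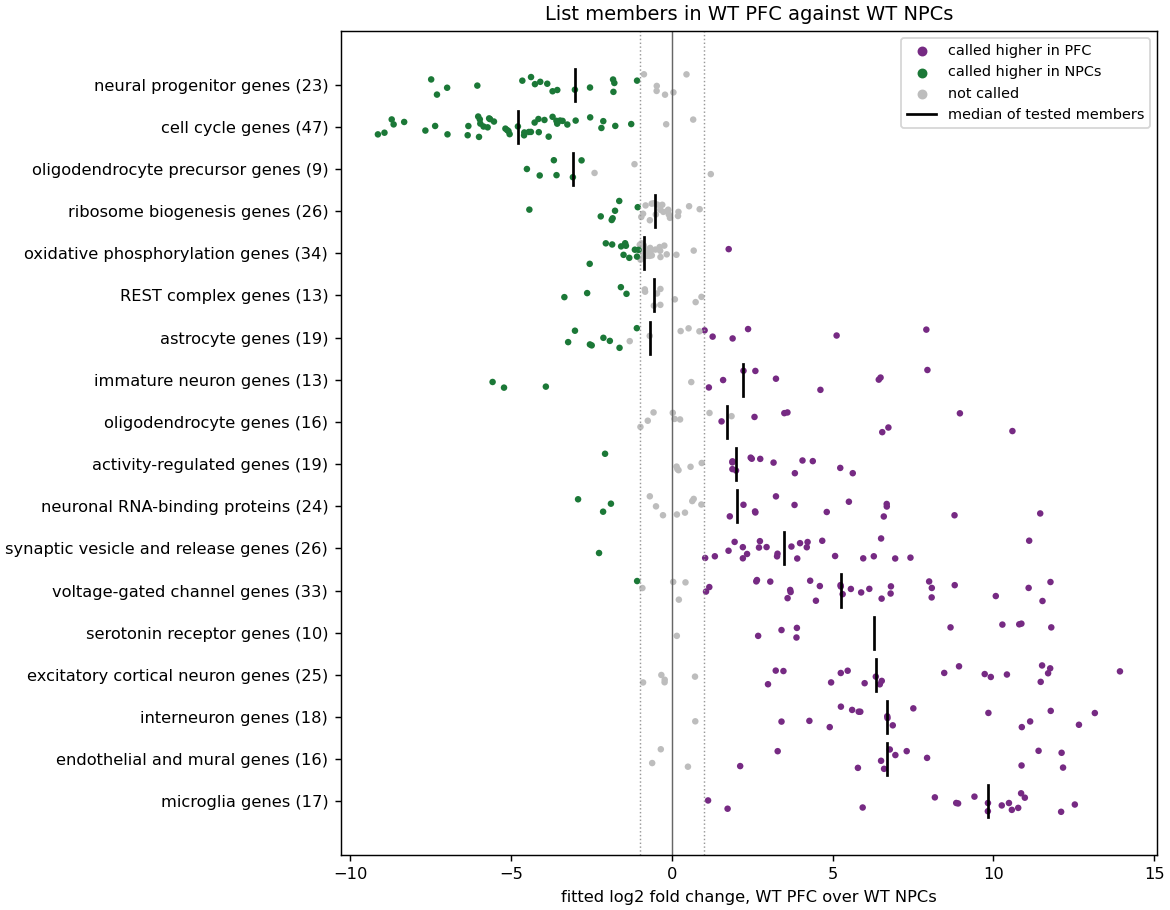
Fitted log2 fold change of WT PFC over WT NPCs (x axis) for the tested members of 18 gene lists (rows, number tested in brackets), 1 point per gene, with dotted lines at a log2 fold change of -1 and 1. The medians, drawn as black bars, run from -4.78 for cell cycle genes to 9.83 for microglia genes, and the astrocyte row holds called genes on both sides.

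Early neuronal genes were called in both directions. Of 13 immature neuron genes tested, 9 were called higher in PFC, 69.2% beside 29.4% of all genes, and 3 in NPCs, 23.1% beside 22.2%. *Tubb3* and *Stmn2*, cytoskeletal genes that neurons keep in the adult, had log2 differences of 4.62 and 6.44. *Sox4* and *Sox11*, transcription factors of newborn neurons, were higher in NPCs, at 336, 309 and 371 CPM against 9.14, 9.58 and 8.50 CPM for *Sox4* and 37.2, 40.4 and 41.6 CPM against 3.70, 2.65 and 1.26 CPM for *Sox11*.

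Of 13 genes of the REST repressor and its partners, 4 were called higher in NPCs, 30.8% beside 22.2% of all genes, and 0 in PFC, with a median of -0.56. *Rest*, which encodes the repressor of neuronal genes, was at 69.8, 81.5 and 93.3 CPM in NPCs and 8.596, 8.21 and 7.24 CPM in PFC (log2 difference -3.34, SE 0.15, adjusted p = 5.7e-07 by edgeR). *Rcor2*, a corepressor, fell by 2.63, *Hdac2*, a histone deacetylase, by 1.58, and *Kdm1a*, a histone demethylase, by 1.41. The 9 others were not called, although 1 was called higher in PFC without PFC replicate 3. The RE1 element, the site to which REST binds, was searched by its 17-base consensus on both strands with up to 2 mismatches and was in 0.143% of all promoters. It was in 1 of 27 promoters of the synaptic list, that of *Syn1*, in 1 of 26 of the excitatory list, that of *Gria2*, in 1 of 37 of the cell cycle list, that of *Mcm5*, and in 0 of 33 of the channel list. The first pair is shown by the first 100 bases of the promoter, as *Gria2* (chr3:80802986-80803085, minus strand) and *Syn1* (chrX:20921069-20921168, minus), with the match, which has 1 mismatch in each, in capitals.
Gria2: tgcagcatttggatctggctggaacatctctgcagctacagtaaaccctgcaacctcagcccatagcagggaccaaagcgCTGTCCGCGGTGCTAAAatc
Syn1: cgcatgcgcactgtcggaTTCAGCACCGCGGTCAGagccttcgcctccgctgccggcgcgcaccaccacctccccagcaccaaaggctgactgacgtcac
*Syn1*, a vesicle phosphoprotein gene, was at 21.7, 15.3 and 26.4 CPM in NPCs and 331, 299 and 381 CPM in PFC (log2 difference 3.99, SE 0.21), while *Gria2*, described above, was not called.

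Among 24 neuronal RNA-binding proteins and their counterparts tested, 13 were called higher in PFC, 54.2% beside 29.4% of all genes. In NPCs 3 were called higher, 12.5% beside 22.2% of all genes, and the list median was 2.02. *Rbfox3*, the nuclear antigen of mature neurons, was at 0.72, 0.46 and 0.36 CPM in NPCs and 226, 221 and 249.97 CPM in PFC (log2 difference 8.79, SE 0.20). *Rbfox1*, its relative, had 3 counts in NPCs and 234 to 283 CPM in PFC, a ratio of 3208 (95% exact Poisson interval 1098 to 15558). *Srrm4*, which promotes neuronal microexons, was at 0.72, 0 and 1.30 CPM against 79.4, 76.1 and 68.9 CPM. *Ptbp1*, the splicing repressor of dividing cells, was higher in NPCs, at 135, 155 and 142 CPM against 33.3, 35.0 and 30.1 CPM. *Qk*, a regulator of glial RNA, was also higher in NPCs, at 2550.1, 2006 and 2646 CPM against 309.6, 323 and 325 CPM (log2 difference -2.91, and -2.28 with the density limit), and *Ptbp3* was the remaining one.

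Precursor genes of the oligodendrocyte lineage were higher in NPCs. Of 9 precursor genes tested, 6 were called higher in NPCs and 0 in PFC, with a median of -3.07. *Olig2*, the factor that specifies the lineage, was at 1118, 1090.0 and 1108 CPM in NPCs and 40.0, 57.5 and 48.6 CPM in PFC (log2 difference -4.50, SE 0.17, adjusted p = 2.4e-07 by edgeR, and -3.04 with the density limit). *Olig1*, its relative, had a log2 difference of -4.10, and -1.60 with the density limit. *Cspg4* and *Vcan*, proteoglycans of precursors, fell by 3.66 and 3.58. *Gpr17*, a receptor of cells about to differentiate, was at 627, 65.7 and 338 CPM against 54.5, 52.3 and 40.6 CPM.

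Of 16 genes of mature oligodendrocytes, 8 were called higher in PFC and 0 in NPCs, with a median of 1.70, and their sum overlapped between groups, at 3165, 264 and 2695 CPM in NPCs and 2331 to 3048 CPM in PFC. *Mobp*, a myelin gene, was at 6.24, 0 and 7.46 CPM in NPCs and 397, 407 and 516 CPM in PFC (log2 difference 6.55, SE 0.87). *Mog*, on the surface of myelin, was at 1.04, 0 and 0.72 CPM against 57.6, 70.2 and 72.4 CPM. *Ermn*, a gene of myelinating cells, had 2 counts in NPCs and 90.3 to 107 CPM in PFC. *Mbp*, a main structural gene of myelin, was by contrast high in 2 of the 3 NPC libraries, at 770.3, 9.78 and 726 CPM in NPCs and 456, 446 and 640.0 CPM in PFC. It was not called (log2 difference 0.03, SE 1.17).

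The low value of *Mbp* in NPCs was that of replicate 2. Among 10433 genes with a mean of at least 10 CPM in NPCs, 114 were in replicate 2 below 0.25 of the mean of replicates 1 and 3, and 14 were over 4 times that mean, whereas replicates 1 and 3 differed by more than 4-fold in 12 genes. *Sox10*, the factor of the oligodendrocyte lineage, was at 211, 5.91 and 137 CPM in NPCs, *Mag*, a myelin glycoprotein gene, at 66.4, 1.38 and 66.0 CPM, and *Pdgfra*, a receptor of precursors, at 225, 27.6 and 181 CPM. Genes outside the lineage were also low there, such as *Aldh1l1*, a folate enzyme used as an astrocyte marker, at 965, 62.8 and 909 CPM. *Lgr5* and *Cp*, chosen after their values were seen, were high there, at 8.32, 56.4 and 8.04 CPM and 9.77, 110.5 and 10.9 CPM. Without replicate 2, *Sox10* (log2 difference -1.32) and *Pdgfra* (-1.66) were called higher in NPCs, *Mag* was called higher in PFC (1.28), and *Mbp* stayed uncalled at -0.56. Members of the mature oligodendrocyte list called higher in NPCs then numbered 3 in place of 0.

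**Figure D3:**
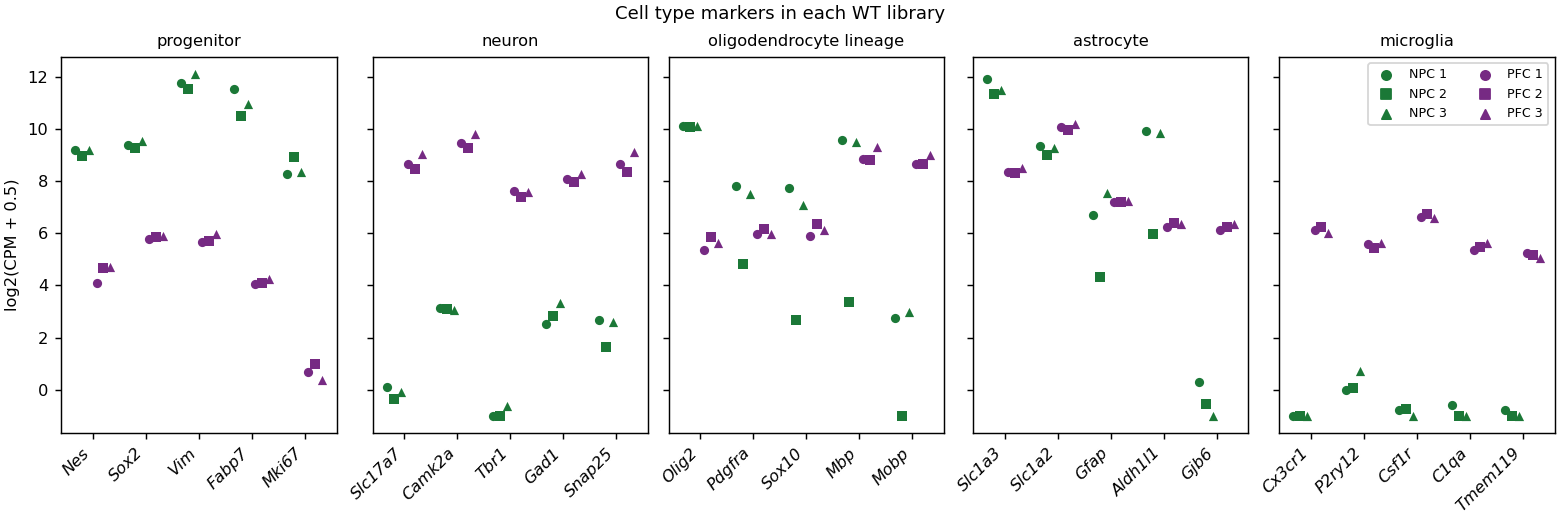
Level of 25 marker genes in each WT library, as log2(CPM + 0.5) on the y axis, with symbols for replicates 1 to 3 in NPCs (green) and PFC (purple). The PFC libraries lie close together throughout, whereas NPC replicate 2 (green square) lies far below the other NPC libraries for *Sox10*, *Mbp* and *Aldh1l1*.

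Astrocyte genes were called in both directions. Of 19 genes, 6 were called higher in PFC, 31.6% beside 29.4% of all genes. In NPCs 8 were called higher, 42.1% beside 22.2% of all genes, and 5 with the density limit. *Slc1a3*, the glutamate transporter shared by radial glia and astrocytes, was at 3892, 2617 and 2887 CPM in NPCs and 328, 317 and 364 CPM in PFC (log2 difference -3.22, SE 0.19, and -1.94 with the density limit). *Apoe*, the lipid carrier, was also higher in NPCs, at 1465, 1229 and 931 CPM against 193, 161 and 268 CPM, and lost its call with the density limit. *Slc1a2*, the main glutamate transporter of the adult, was at 651, 511 and 612 CPM in NPCs and 1065, 1003 and 1153 CPM in PFC (log2 difference 0.86, SE 0.14), a difference under the 2-fold threshold although the groups did not overlap. It passed with library totals unscaled (1.18) and with the GC offset (1.05). *Gjb6*, a gap junction gene of mature astrocytes, had 11 counts in NPCs and was at 69.0, 74.3 and 80.3 CPM in PFC. *Aldh1l1*, at 75.5, 83.3 and 81.9 CPM in PFC, had a log2 difference of -3.01 (SE 0.92, and -2.24 with the density limit), and its call was lost when any library other than NPC replicate 2 was left out (-3.02 to -2.62). *Gfap*, the astrocyte filament, was at 103, 19.4 and 184 CPM in NPCs and 144, 146 and 150.7 CPM in PFC, and its groups overlapped.

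Genes of microglia, vessels, blood and meninges were mostly higher in PFC. Microglia genes summed to 24.8 to 39.0 CPM in NPCs and 694 to 709 CPM in PFC. All 17 microglia genes were called higher in PFC, 16 of them without NPC replicate 3, with a median of 9.83, or 8.84 with genes at 0 in NPCs set to their bound. *Cx3cr1*, the fractalkine receptor, had 0 counts in NPCs and was at 68.7, 74.3 and 63.8 CPM in PFC, at least 853-fold higher. *Csf1r* and *C1qa*, a growth factor receptor and a complement gene, had 2 counts each in NPCs. Of 16 endothelial and mural genes, 13 were called higher in PFC and 0 in NPCs, with a median of 6.69 and a sum of 166 to 303 CPM in NPCs and 651 to 748 CPM in PFC. *Cldn5*, a tight junction gene of the blood-brain barrier, had 0 counts in NPCs and was at 50.4, 49.9 and 55.6 CPM in PFC, at least 643-fold higher. Of 7 blood genes, 5 passed the count filter, which high counts in PFC alone are enough to pass, and were called higher in PFC, as 5 of 7 were with no filter. The 7 genes had a sum of at most 0.80 CPM in NPCs and 44.8 to 62.0 CPM in PFC, and *Hbb-bs*, a globin gene, was there at 18.8, 17.0 and 25.3 CPM with 0 counts in NPCs. Meningeal and fibroblast genes were higher in PFC in 10 of 13 cases and in NPCs in 1, with a sum of 60.6 to 77.3 CPM in NPCs and 326 to 454 CPM in PFC and with *Dcn*, a collagen-binding proteoglycan, at 13.8 to 21.1 CPM in PFC. Of 10 choroid plexus genes, 7 passed the count filter. Of these 7, 4 were called higher in PFC, 57.1% beside 29.4% of all genes, and 1 in NPCs, 14.3% beside 22.2%. The list summed to 214 to 280.4 CPM in PFC and 53.9 to 179.5 CPM in NPCs, and *Ttr*, the defining one, had 0 counts in NPCs and 9.25, 30.3 and 33.1 CPM in PFC. The part of these cells in the other differences was not tested.

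Members of the lists named for striatal projection neurons and the hypothalamus were also counted in PFC. Cells of the cortex can express members of these lists, and the striatal libraries of the series were not compared. Whether these counts come from cortical cells was therefore not tested. Of 13 striatal projection neuron genes, 12 passed the count filter. Of these 12, 9 were called higher in PFC, with a median of 4.51, or 4.36 at the bound. *Ppp1r1b*, a target of dopamine signalling, was at 84.2, 65.2 and 76.3 CPM in PFC, and *Drd1*, a dopamine receptor, at 22.2, 17.2 and 18.6 CPM. Only 3 of 14 hypothalamic genes passed the count filter, and with no filter 6 of 13 were called higher in PFC and 0 in NPCs (without NPC replicate 2, 1 member was called higher in NPCs). They include the peptide gene *Crh* with 0 counts in NPCs and 10.99, 13.6 and 14.8 CPM in PFC.

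Of 13 regional transcription factors tested, 4 were called higher in PFC, 30.8% beside 29.4% of all genes, and 5 in NPCs, 38.5% beside 22.2%. *Emx1*, a factor of the cortical lineage, had 0 counts in all NPC libraries and was at 49.3, 34.3 and 32.6 CPM in PFC, at least 479-fold higher. *Six3*, an anterior forebrain factor, was at 45.7, 1.48 and 71.0 CPM in NPCs and had 3 counts in PFC, and *Otx2*, of forebrain and midbrain, was at 30.3, 6.64 and 26.8 CPM against 0.11, 1.20 and 0.47 CPM. *En2*, of the midbrain and hindbrain boundary, was at 7.68, 19.7 and 2.53 CPM against 1.63, 2.14 and 1.89 CPM, and was not called without any 1 of the PFC libraries (-2.48 to -2.26). *Pax3*, a dorsal neural tube factor, was at 3.20, 3.41 and 2.61 CPM with 0 counts in PFC, at least 27.9-fold higher in NPCs. Without NPC replicate 2, 8 members were called higher in NPCs in place of 5.

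Fetal growth genes were called in both directions. Of 15 tested, 7 were higher in PFC, 46.7% beside 29.4% of all genes, and 5 in NPCs, 33.3% beside 22.2%. With no filter, 7 were called in each direction. *Igf2bp3*, an RNA-binding protein of fetal tissue, was at 74.0, 48.0 and 68.7 CPM in NPCs and 2.18, 2.74 and 2.05 CPM in PFC (log2 difference -4.74, SE 0.23). The imprinted pair *H19* and *Igf2*, which share regulatory elements, moved in opposite directions. *H19* was at 26.4, 20.4 and 15.9 CPM in NPCs with 1 count in PFC, and *Igf2* was at 0.48, 1.11 and 0.43 CPM in NPCs and 76.8, 58.9 and 64.7 CPM in PFC. *Meg3*, an imprinted noncoding RNA, was at 25.5, 4.43 and 60.5 CPM in NPCs and 949, 988 and 888 CPM in PFC. *Lin28b*, a regulator of developmental timing, had 1 count in NPCs and was at 6.75, 6.67 and 5.19 CPM in PFC. Of 14 pluripotency genes only 5 passed the count filter, 3 called higher in PFC and 1 in NPCs. With no filter, 3 of 13 were called higher in PFC and 4 in NPCs, so the more frequent direction was the opposite one. *Pou5f1*, which encodes Oct4 and has near-identical pseudogene copies that reads can be shared with, was at 2.72, 1.75 and 2.46 CPM in NPCs and had 1 count in PFC. None of the 4 sex-linked genes tested was called, and their summed level varied from 90.5 to 662 CPM among the NPC libraries and from 167 to 214 CPM among the PFC libraries, and without NPC replicate 1, 3 of them were called higher in NPCs.

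Of 13 serotonin receptor genes, 10 passed the count filter, which high counts in PFC alone are enough to pass. Of these 10, 9 were called higher in PFC and 0 in NPCs, so the filter enters this count. Their median was 6.28, or 4.88 at the bound, and 3.91 to 5.01 in the fits that left out 1 library. *Htr3a*, the ion channel subunit, had the highest RPKM in PFC at 8.24, followed by *Htr5a* at 7.71, *Htr7* at 6.12 and *Htr2c* at 5.14. *Htr2c*, which couples to phospholipase C, was at 44.3, 59.3 and 40.1 CPM in PFC with 1 count in NPCs. *Htr5a* and *Htr1a*, inhibitory receptors, were at 44.0, 44.4 and 36.0 CPM and at 18.5, 24.4 and 22.5 CPM in PFC. *Htr7* was at 18.5, 24.0 and 19.8 CPM there. Counts of *Htr5a*, *Htr1a* and *Htr7* were 0 in NPCs. *Htr2a*, the receptor bound by hallucinogens, was detected in both, at 0.80, 0.65 and 1.67 CPM in NPCs and 17.8, 15.7 and 14.01 CPM in PFC (log2 difference 3.89, SE 0.33).

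Pairs of related genes in which one form is broad or progenitor-type and the other neuronal or adult-type were compared within each library, as the ratio of their RPKM. Over 21 pairs the broad form was called higher in NPCs in 15, the neuronal form was called higher in PFC in 13, and both held in 7. The ratio was higher in every PFC library than in any NPC library in 19 pairs. Of the single genes tested, the level in every PFC library was above every NPC library in 42.2% and below in 39.2%. The ratios set a cultured population beside bulk tissue, so a replacement of one form by the other within a cell type was not tested.

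In the SWI/SNF chromatin remodeller, the actin-like subunit *Actl6a* was at 14.5, 16.0 and 14.8 RPKM in NPCs and 3.64, 3.72 and 2.998 RPKM in PFC, and its neuronal form *Actl6b* at 0.056, 0 and 0.017 RPKM against 15.8, 17.7 and 18.1 RPKM. Both were called, so the neuronal form went from nearly undetected to 4.34, 4.76 and 6.04 times the other. *Ss18l1* over *Ss18*, another pair of subunits, went from a ratio of 0.75, 0.64 and 0.71 to 5.72, 5.29 and 5.48. *Dpf1* over *Phf10* went from 0.32, 0.23 and 0.33 to 0.87, 0.79 and 0.88, so the broad form stayed the higher of that pair in PFC. *Dpf1* was close to the threshold (log2 difference 1.02) and was not called without NPC replicate 2 (0.86) or PFC replicate 1 (0.99).

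Pairs of translation and energy genes also differed between the groups. The elongation factor gene *Eef1a2* over *Eef1a1* had a ratio of 0.00039, 0 and 0.00040 in NPCs and 2.50, 2.48 and 2.27 in PFC. *Eef1a1* had a log2 difference of -3.38, which was -1.56 under the density limit, and *Eef1a2* one of 9.60. The enolase ratio *Eno2* over *Eno1* went from 0.14, 0.091 and 0.13 to 5.32, 4.67 and 5.03. For hexokinase and lactate dehydrogenase 1 partner was called: *Hk2* fell by 3.82 and *Ldha* by 3.05, or by 1.64 with the density limit, while *Hk1* and *Ldhb* were not called. *Ldhb* was called higher in PFC with library totals unscaled (1.05). The aldolase genes *Aldoa* and *Aldoc* were both called higher in NPCs, and neither was under the density limit.

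In ion and axonal transport the neuronal partner alone was called. *Slc12a5*, the chloride extruder that makes GABA inhibitory, was at 6.003, 5.17 and 7.39 CPM in NPCs and 459.9, 445 and 488 CPM in PFC (log2 difference 6.22, SE 0.16), whereas *Slc12a2*, the chloride importer, was at 112, 148 and 109 CPM against 121, 140.1 and 127 CPM and was not called. *Kif5a* over *Kif5b*, kinesin motors, went from 0.048, 0.053 and 0.064 to 4.40, 3.81 and 5.52.

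Some pairs went against the scheme. *Grin2b*, placed as the early NMDA receptor subunit, was itself higher in PFC, at 6.404, 1.75 and 2.10 CPM in NPCs and 336, 331 and 249.8 CPM in PFC, and *Grin2a*, the adult one, was at 18.2, 16.1 and 8.03 CPM in PFC with 6 counts in NPCs. *Ptbp2*, the neuronal relative of *Ptbp1*, was at 182, 140.1 and 181 CPM in NPCs and 120.0, 111 and 128 CPM in PFC (log2 difference -0.49, SE 0.13), so the change in their ratio from 0.70, 0.47 and 0.66 to 1.86, 1.64 and 2.19 came with the fall of *Ptbp1*.

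**Figure D4:**
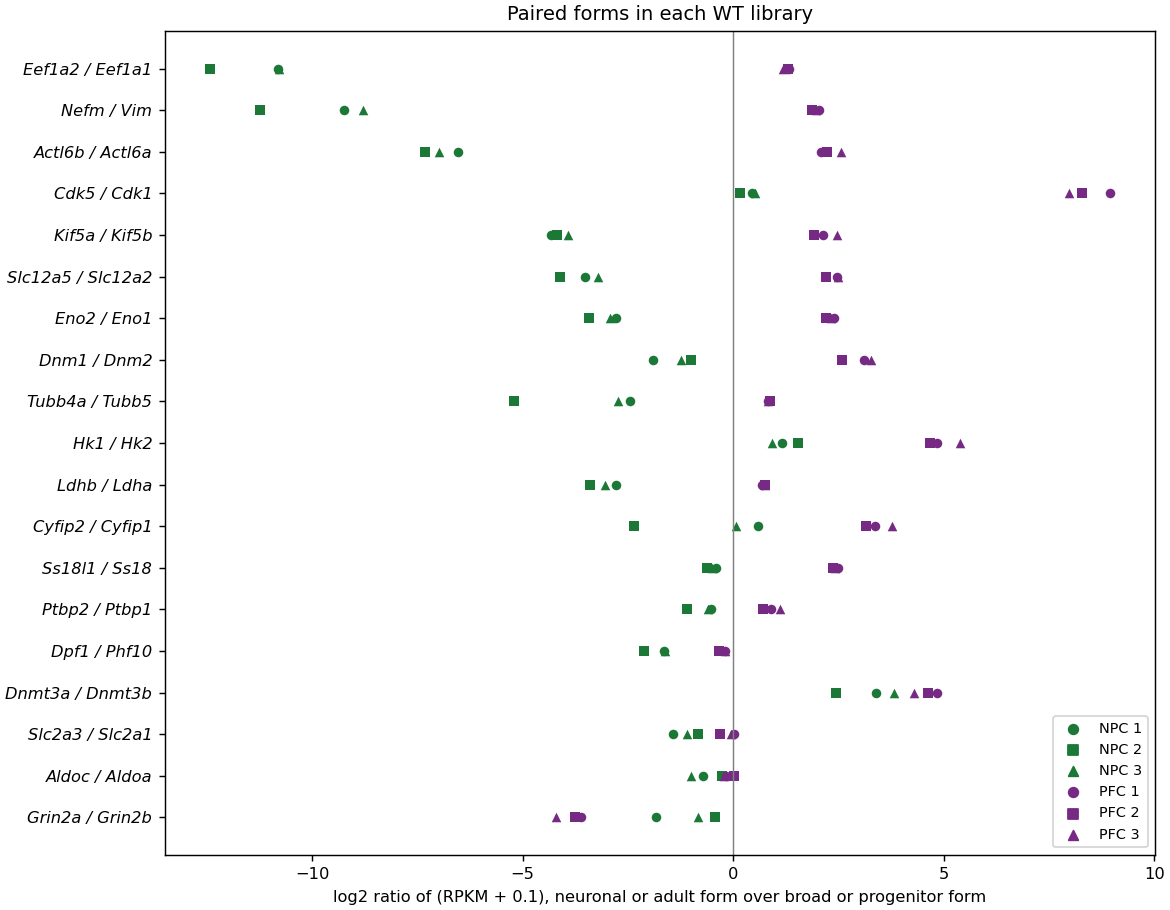
Log2 ratio of the neuronal or adult form over the broad or progenitor form (x axis, RPKM with 0.1 added to each) in every WT library for 19 gene pairs (rows). PFC libraries (purple) lie to the right of NPC libraries (green) in most rows, with *Grin2a* over *Grin2b* at the bottom as an exception.

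Several of the largest differences were outside the lists. Among genes with at least 10 counts in every library, those toward PFC included *Rph3a*, an effector of synaptic vesicle release, at 1.601, 1.20 and 1.74 CPM in NPCs and 376, 349 and 438 CPM in PFC (log2 difference 7.98). They also included *Dmtn*, an actin bundler, *Phf24*, *Faim2*, an inhibitor of death receptor signalling, *Pacsin1*, an endocytic protein, *Ddn*, a dendritic protein, *Syt1*, the calcium sensor of release, *Rab3c*, a vesicle GTPase, and *Pgbd5*, derived from a transposase (log2 difference 7.37). The 10 largest toward NPCs had log2 differences of -7.48 to -6.02. *Tnc*, an extracellular matrix protein of the stem cell niche, led them at 496, 488 and 495 CPM in NPCs and 2.61, 2.82 and 2.83 CPM in PFC, followed by *A2m*, a protease inhibitor, *Fabp7*, *Ifi203*, interferon-inducible, *Rps3a3*, *Ccna2*, a cyclin, *Col4a5*, a basement membrane collagen, *Igfbp3*, which binds insulin-like growth factors, *Vim* and *F2r*, the thrombin receptor. *Rps3a3* is a processed pseudogene whose reads can be shared with its parent. With the density limit *Igfbp3* was at -4.94 and *Rps3a3* at -6.001, in place of -6.32 and -6.599.

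Among genes with 0 counts in every NPC library the highest CPM in PFC was that of *Gpr26*, an orphan receptor, at 333, 314 and 287 CPM, at least 3851-fold higher. Among the next were *Mal2*, a transport protein, *Scn4b*, a sodium channel subunit, *Lamp5*, a vesicle protein of cortical neurons, and *Galnt9*, a glycosyltransferase, with bounds from 2000-fold (*Galnt9*) to 2432-fold (*Mal2*). Among those with 0 counts in every PFC library the bounds were lower. *Irx5*, a homeobox gene, was at 6.64, 24.4 and 7.24 CPM in NPCs, at least 116-fold higher, and *Depdc1a*, a gene of dividing cells, at 8.96, 10.9 and 8.11 CPM, at least 84.6-fold higher. The other 4 were the mitochondrial tRNA genes *mt-Ta* and *mt-Tl1*, the processed pseudogene *Gm12901* and *Gm9008*. By annotation class, 409 of 776 processed pseudogenes tested (52.7%) were called higher in NPCs and 106 (13.7%) in PFC. Of 260 lincRNA genes 55 (21.2%) were higher in NPCs and 125 (48.1%) in PFC. For all genes tested the shares were 22.2% in NPCs and 29.4% in PFC.

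The direction of change followed the density of counts in NPCs. Genes with 0 counts in every NPC library were left out of this comparison. Of 2890 genes above 0 and up to 0.01 counts per exon base in NPCs, 2316 were called higher in PFC and 115 in NPCs. Their median log2 difference was 3.48. Of 526 genes above 1 count per exon base, 0 were called higher in PFC and 418 in NPCs, and the median was -1.84. Since NPC density enters both sides of this comparison, it is a description only. Ribosomal protein genes summed to 7630 to 7757 CPM in NPCs and 2554 to 3175 CPM in PFC. Of 89 tested, 42 were called higher in NPCs, beside 22.2% of all genes, and 14 in PFC, beside 29.4% of all genes. With the density limit of 2, 4552 genes were called higher in PFC and 3435 in NPCs. Restricted to the 6496 genes under 0.1 counts per exon base in every library, the counts were 2243 and 1459. The part of the difference in table form in the remaining calls was not tested.

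**Figure D5:**
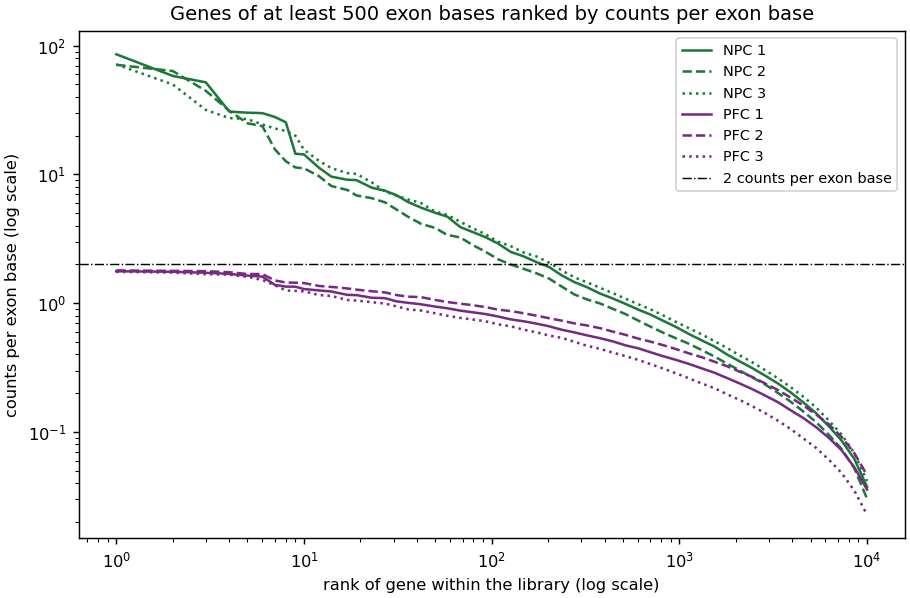
Counts per exon base (y axis, log scale) of genes with at least 500 exon bases, ranked within each library (x axis, log scale), for 3 NPC libraries (green) and 3 PFC libraries (purple). NPC curves rise to between 71.0 and 85.7 at the top rank, while PFC curves level off between 1.75 and 1.80, below the dash-dotted line at 2.

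Base composition also moved with the difference. The median GC content of the longest transcript was 51.3% for genes higher in PFC and 48.5% for genes higher in NPCs. Among protein-coding genes alone, the median log2 difference went from -0.30 in the 20% with the lowest GC to 0.44 in the 20% with the highest. A GC offset, applied to all genes tested, left 4595 genes called higher in PFC and 3547 in NPCs. By exon length the medians of protein-coding genes went from 0.20 for the shortest 20% to -0.04 for the longest.

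The KO libraries gave the same contrast from other samples, with 29.4% of 15987 genes tested called higher in KO PFC and 22.8% in KO NPCs. Of the genes higher in WT PFC that were tested there, 4283 of 4538 (94.4%) were also called higher in KO PFC, and 2 had the opposite sign. Of those higher in WT NPCs, 3265 of 3500 (93.3%) were also called, and 1 had the opposite sign. By list, 45 of 47 cell cycle genes, 18 of 23 progenitor genes and 7 of 9 precursor genes were higher in KO NPCs, and 20 of 25 excitatory neuron genes and 17 of 17 microglia genes in KO PFC. Members higher in NPCs numbered 14 in place of 11 for oxidative phosphorylation, 10 in place of 8 for astrocytes, 7 in place of 5 for fetal growth and 3 in place of 0 for sex-linked genes. The KO tables have the same form as the WT tables of their source, so they do not separate the difference between NPCs and PFC from the difference between the table sets.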

How the data were processed

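RNA from 3 WT NPC and 3 WT PFC samples was sequenced by the authors (TruSeq libraries, Illumina HiSeq 2000). Per the labels and the study's methods, the authors processed reads with CASAVA 1.7, mapped them to the mm10 build (GRCm38) using STAR and counted reads per Ensembl gene by HTSeq. The deposited values are raw counts, 1 table per sample. HTSeq's 5 summary lines were left out. The strand setting and any removal of duplicate reads are not given in the sources used here for RNA-seq, so overlapping genes are uncertain. Gene symbols and exon lengths came from the GENCODE vM21 annotation (GRCm38), which matched 37693 of 39179 identifiers and 99.7% of counts.

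Counts were fitted with edgeR 4.0.16 in R 4.3.3 (filterByExpr, TMM, robust quasi-likelihood). Genes were called at an adjusted p under 0.05 and an absolute log2 fold change above 1, as in the study. The text names, per direction, the 10 largest called differences with at least 10 counts in every sample, the 6 most abundant genes with 0 counts in the other group, members of 28 lists (515 genes, 467 tested) and 21 pairs, and *Phf8*. Some genes that this rule names are not reported here. These lists and pairs were chosen with earlier results of these data known. Other settings, among them DESeq2 1.42.0, numbered 23, and 2 more were added after seeing the data. Groups at 0 were set to a floor of 3 counts over the group. Floors and intervals cover counting error only, and depth was 5898286 to 15539811 counts per sample.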

Additional observations from a re-analysis of the deposited data

Results flagged for a closer look

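HTSeq's summary line for reads aligned to several places, which enters no comparison, was high in every WT NPC library. It reached 34.1% of the total of all lines, summary lines included, in NPC replicate 3, against at most 8.90% in the WT PFC libraries. Its part in the differences was not tested.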

How the results depend on the processing

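25 alternatives were run. For 161 called genes named in the text, 0 changed direction under any of them, and 15 lost their call under at least 1 (57 instances). Of the named genes not called, 13 gained a call under at least 1 (29 instances), among them *Slc1a2*, *Gria2* and *Ldhb* with library totals unscaled (1.18, 1.04 and 1.05). The reported counts were 4689 genes toward PFC, 3547 toward NPCs and 7 pairs with both partners called in opposite directions. A minimum of 10 counts in every sample, which leaves fewer genes to test, gave 2661 toward PFC, 189 list members called and 4 such pairs. Leaving out genes whose exons overlap another gene gave 3108 toward PFC and 2 such pairs. An adjusted p under 0.05 alone gave 5921 toward NPCs and 11 such pairs. Genes under 0.1 counts per exon base gave 2243 toward PFC, 1459 toward NPCs, 87 list members and 0 pairs, since fewer genes were tested. Leaving out each library in turn gave 4729 to 4877 toward PFC and 3498 to 3646 toward NPCs.

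The replicate numbers are shared by NPCs and PFC, which are different samples, and same-numbered libraries did not deviate together (r = -0.04, 0.03 and 0.03), so the numbers do not pair them. The replicate block gave 4670 toward PFC and 3505 toward NPCs.

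Uncalled genes whose sign changed are listed by setting, and the cause was not tested. With library totals unscaled *Ccne1* was at 0.14, *Slc2a3* 0.10, *Dnmt3a* 0.10 and *Camk2b* 0.091. *Mbp* was at -0.037 with no filter, -0.024 with the GC offset and -0.23 in KO samples. *Ptbp2* was at 0.017 with the GC offset and 0.032 with block and offset, and *Hk1* at -0.18 and -0.17. In KO samples *Gfap* was at -1.26 and *Slc12a2* at -0.24. *Phf8* was at -0.22 among genes under 0.1 counts per exon base. Leaving out 1 library in turn gave ranges of -0.56 (without NPC replicate 2) to 0.46 for *Mbp*, -0.021 to 0.21 for *Slc12a2*, -0.084 to 0.23 for *Hk1* and -0.48 to 0.092 for *Slc2a3*.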
